A study of Caenorhabditis elegans with 8 samples.

Results

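The genes of the translation initiation and elongation factors were examined in whole adult Caenorhabditis elegans after RNA interference against spk-1. They were taken by symbol, as genes whose names begin with eif-, eef-, iff- or iftb- followed by a digit and whose introns are listed in the authors' table of reads across splice junctions. All 33 genes that the reference annotation names in this way were found, of 5762 genes with listed introns. They held 118 of the 20324 introns. The annotation gives these genes 141 introns, and 116 of the 118 have the length of an annotated intron of their gene, the exceptions being the 40 nt intron of eif-3.G and a 168 nt intron of iff-1. No annotated symbol begins with iftb-, and the gene once called iftb-1 now carries the symbol eif-2beta. The rule used the symbol and the listing of introns, and all listed introns had at least 21 reads in each control library. It was set with earlier results of these data known.

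These proteins carry a ribosome through the first steps of translation. Initiation factors bring the initiator tRNA and the small ribosomal subunit to a messenger RNA and set the start codon, and elongation factors then deliver each aminoacyl-tRNA and move the ribosome along. In worms, as in other animals, the elongation factor genes are among the most highly expressed of all, and phosphorylation of the alpha subunit of eIF2 is the main switch by which stress lowers initiation. SPK-1, the kinase targeted here, phosphorylates the serine- and arginine-rich proteins that help the splicing machinery find introns.

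Both groups were wild-type N2 worms grown at 20 °C, fed from the fourth larval stage for 24 h at 25 °C, and collected as whole adults, at least 100 per condition. The 4 control libraries came from worms given bacteria that carry the empty vector L4440, and the 4 spk-1(RNAi) libraries from worms fed bacteria making double-stranded RNA of spk-1. RNA carrying a poly(A) tail was sequenced with strand marking by dUTP. The labels do not say that replicates were separate cultures, so the spread behind each p-value may be technical only. In whole-worm RNA, fewer cells of a type and less RNA per cell cannot be told apart.

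Junction reads per library ran from 1821717 to 47299659 in controls and from 2660062 to 40426751 after spk-1(RNAi), and replicates 1 and 2 of each group were shallower than replicates 3 and 4. Every listed intron had at least 21 reads in each control library, while spk-1(RNAi) libraries went down to 1 read, so the table cannot show an intron used only after spk-1(RNAi). Summed over 8 introns of the targeted gene, spk-1 fell from 419.7 ± 112 to 111 ± 56.0 reads per 1000000 of the library (CPM; SD, n = 4) and was below its control in 4 of 4 pairs, whereas the introns after exons 6 and 7 together had 120.1 ± 38.1 CPM in control worms and 17859 ± 29076 CPM in spk-1(RNAi) worms. That split was made after the introns' values were seen. Of the marker lists for other tissues, all 14 germline genes, 8 of 11 muscle, 6 of 9 intestinal, 5 of 8 hypodermal and 2 of 5 neuronal genes had listed introns, and 0 of 5 sperm genes did. Their summed levels overlapped between the groups in each of the 5 measured lists.

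The factors made up between 1.48% and 2.56% of all junction reads in a library, and the 6 elongation factor genes between 66.7% and 71.5% of that share. Levels can be compared between genes only per intron, since a gene with more introns collects more junction reads, and are given below as CPM per intron. The comparison is approximate, since introns of a gene differ in reads and not all annotated introns are listed. The value of eif-1 rests on 1 of 4 annotated introns. That of eif-3.G is divided by 5 listed introns, which include alternatives at a shared donor, where 4 are annotated. The gene eef-1A.1, which encodes the elongation factor that delivers aminoacyl-tRNA, stood first with 2360.4 ± 1043 CPM per intron (SD over 8 libraries). It was followed by eef-1B.1 with 960.5 ± 542, eef-1G with 601 ± 138, iff-1 with 575 ± 313 and eef-2 with 429.6 ± 60.2. The top gene was above the next in 8 of 8 libraries, and eef-2 was above eef-1B.2 (232 ± 81.8) in 8 of 8. Between them the order was not firm, because eef-1G exceeded iff-1 in 4 of 8 libraries and iff-1 exceeded eef-2 in 4 of 8.

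Apart from iff-1, the initiation factor genes stood below these. The scanning factor gene eif-1.A had 144 ± 82.8 CPM per intron, below eef-1B.2 in 8 of 8 libraries, and eif-1 had 90.7 ± 23.8. The 3 subunits of eIF2, which carries the initiator tRNA, lay close together, at 89.9 ± 31.6 for eif-2alpha, 60.8 ± 6.29 for eif-2beta and 59.1 ± 10.7 for eif-2gamma. The 5 genes of eIF2B, the exchange factor that recharges eIF2 with GTP, lay between 12.9 CPM per intron (eif-2Bepsilon and eif-2Bgamma) and 20.1 (eif-2Bdelta), and each was below every eIF2 subunit by its mean. These levels are near the lowest listed count, and an eif-2Bgamma intron had 21 reads in control replicate 2. Of annotated introns, 4 of 8 were listed for eif-2Bgamma, 2 of 4 for eif-2Balpha and 5 of 6 for eif-2Bepsilon. All were listed for eif-2Bbeta (3) and eif-2Bdelta (7). Among the 11 eIF3 genes, the means ran from 24.6 for eif-3.H to 84.3 for eif-3.J. Most neighbours in this order changed places between libraries, and below eif-1.A a single neighbouring pair, eif-3.L over eif-3.H, kept its order in 8 of 8 libraries.

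**Figure D1:**
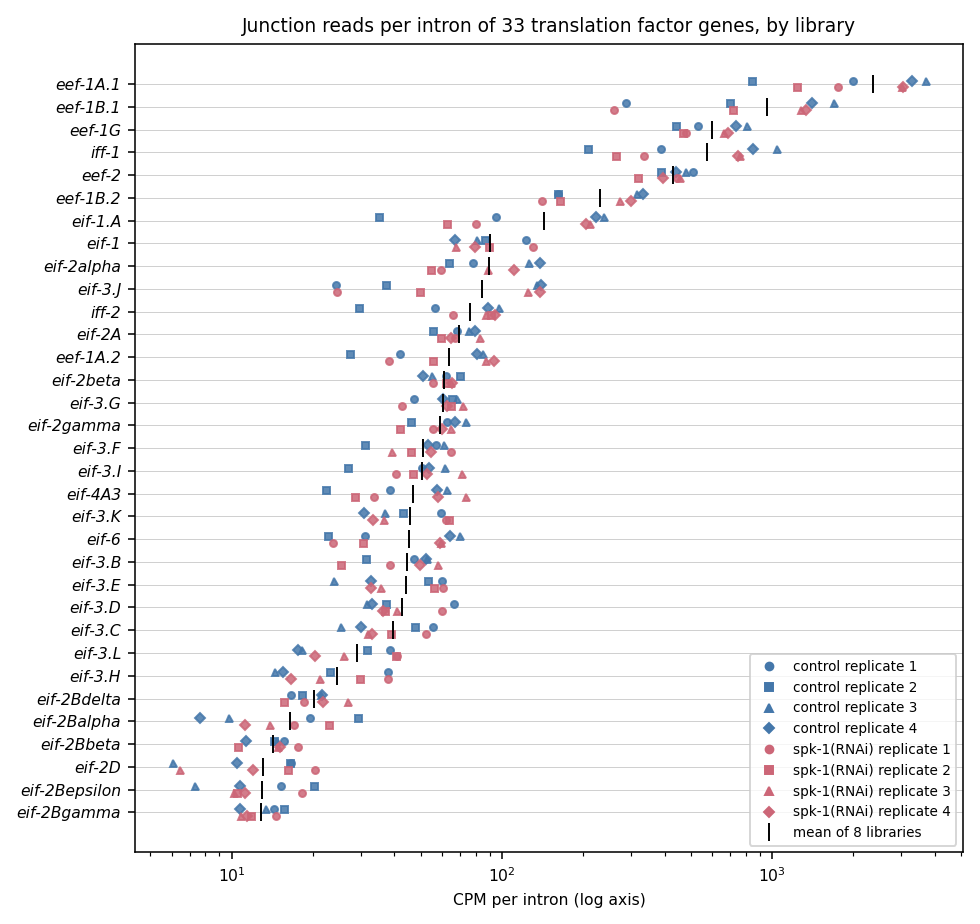
Junction reads per intron (CPM per intron, log axis) of the 33 genes in each of 8 libraries, ordered by their mean (black bars). Blue points are controls and red points spk-1(RNAi), with 1 marker shape for each replicate number; eef-1A.1 leads at a mean of 2360.4 and eif-2Bgamma is last at 12.9, and blue and red points overlap for all 33 genes.

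No translation factor gene was called as changed. In edgeR's quasi-likelihood test of junction reads per gene, 0 of 33 members passed an adjusted p of 0.05 and 0 had an unadjusted p under 0.05, beside 0 of all 5762 genes called (0%) and 54 (0.937%) at an unadjusted p under 0.05. With replicate number as a block, which the libraries' pairing allows, 0 members were called and 2, eif-2alpha and eif-3.L, had an unadjusted p under 0.05, beside 553 of all genes (9.6%). DESeq2's Wald test also called 0 members, and 0 had an unadjusted p under 0.05 without the block and 2 with it. Over all genes that tool called 0 without the block, where 84 (1.46%) had an unadjusted p under 0.05, and 56 (0.972%) with it, with 566 (9.82%). The groups did not overlap for 60 of all genes (1.04%) and for 0 members.

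The fitted intervals were taken for each gene alone and cover reads at listed junctions only, and the spread behind them may be technical. With the block, the 95% interval of the log2 fold change lay between -1 and 1 for 33 of 33 members, that is within a factor of 2, and between -0.5 and 0.5 for 27. The same held for 5270 and 3162 of all genes. Without the block, 21 of 33 members were bounded by -1 and 1, beside 3762 of all 5762 genes. The median log2 fold change of the members was 0.034 with the block (20 positive, 13 negative), beside 0.007 over all genes, and 0.00058 without it (17 positive, 16 negative), beside -0.0045 over all genes. In single pairs, the members' median was -0.14, 0.052, 0.003 and 0.019. The fitted value kept its sign in all 25 settings tried for 6 members. These were eif-2alpha, eif-2gamma, eif-2Bgamma and eef-2 on the negative side and eif-3.K and eif-3.L on the positive side. The settings refit the same 8 libraries or parts of them, and some gave the same values, so a constant sign is not repeated evidence. The share over all genes is not given here.

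**Figure D2:**
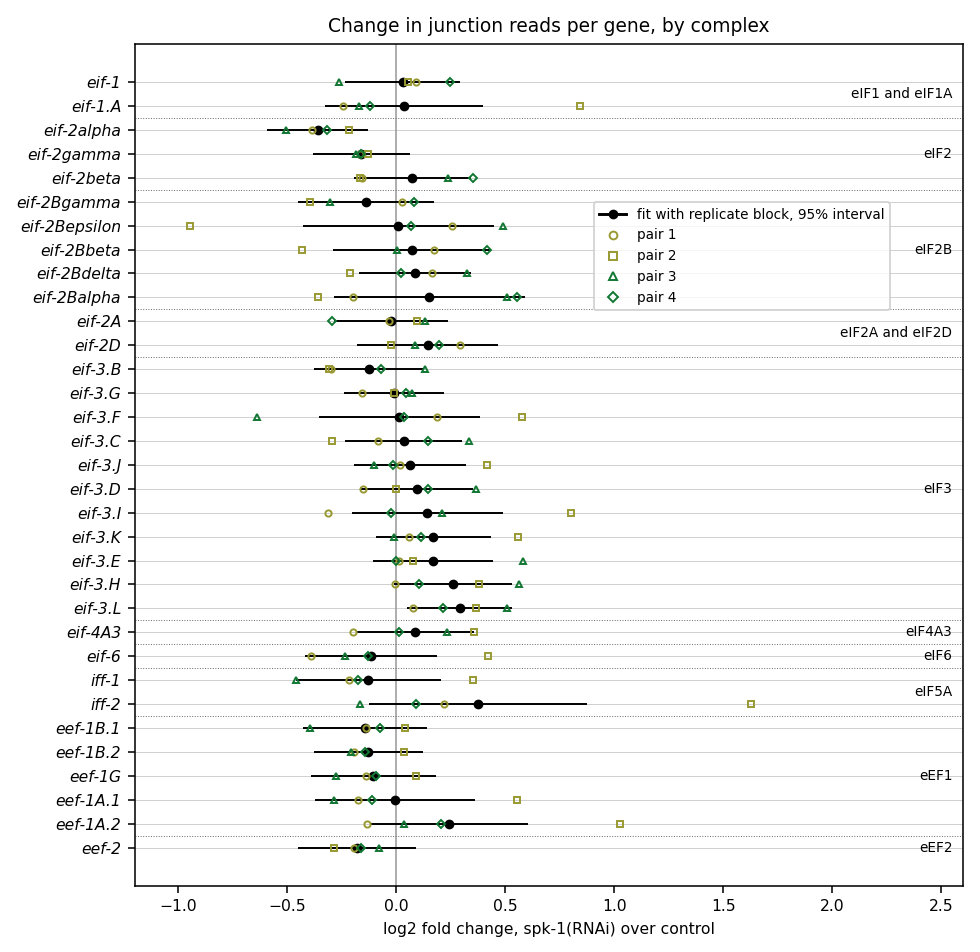
Log2 fold change of spk-1(RNAi) over control for each of the 33 genes, grouped by complex. Black points and bars give the fit with the replicate block and its 95% interval, and open symbols the log2 ratio within each of the 4 pairs; the intervals of eif-2alpha and eif-3.L leave out 0, and the largest single ratio is pair 2 of iff-2 at 1.63.

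The first step of start codon selection is served by eIF1 and eIF1A, small proteins that bind the small ribosomal subunit and keep scanning accurate. The level of eif-1 was 123, 86.3, 81.2 and 67.2 CPM in control replicates 1 to 4 and 131, 89.5, 67.7 and 79.7 CPM in spk-1(RNAi) replicates 1 to 4. For eif-1.A the corresponding values, in the same order, were 190.0, 70.03, 476 and 445 CPM and 160.4, 126, 423 and 408 CPM. The groups overlapped for both genes. Within each group, eif-1 was highest in replicate 1 and eif-1.A was highest in replicates 3 and 4. The blocked log2 fold change was 0.03 (95% interval -0.24 to 0.29) for eif-1 and 0.04 (-0.33 to 0.40) for eif-1.A. In pair 2 eif-1.A differed by 0.84 on the log2 scale and in the other pairs by -0.24, -0.17 and -0.12.

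The eif-2alpha gene had the lowest blocked fold change of the 33 members. In eif-2alpha (Y37E3.10), whose protein is phosphorylated under stress, control replicates 1 to 4 had 234.6, 192, 378 and 414 CPM and spk-1(RNAi) replicates 1 to 4 had 179, 164, 266 and 332 CPM. Each spk-1(RNAi) library lay below the control of the same number, but the spk-1(RNAi) replicates 3 and 4 lay above controls 1 and 2, so the groups overlapped. Group means were 304 ± 108 and 235.3 ± 78.2 CPM (SD, n = 4), and the log2 fold change was -0.36 with the block (SE 0.11, 95% interval -0.59 to -0.13, unadjusted p = 0.00561, adjusted p = 0.326 in edgeR) and -0.37 without it (SE 0.32, adjusted p = 1.0). It ran from -0.58 to -0.19 over the 25 settings. The gene did not pass the adjusted threshold in any of them, and its lowest adjusted p was 0.0519, in pairs 3 and 4 alone with the block.

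Its partner eif-2gamma (Y39G10AR.8), which binds GTP and the tRNA, was also lower within every pair. Control replicates had 313, 230.4, 369.5 and 337 CPM and spk-1(RNAi) replicates 278, 211, 325 and 301 CPM, with overlapping groups. The pair differences were close to each other, at -0.17, -0.13, -0.18 and -0.16 on the log2 scale, and the blocked value of -0.16 (SE 0.10, unadjusted p = 0.138, adjusted p = 0.618 in edgeR) did not pass. The beta subunit gene eif-2beta (K04G2.1), which helps recognise the start codon, had 249, 279.7, 221 and 204 CPM in control worms and 223, 249, 260.1 and 260.5 CPM in spk-1(RNAi) worms. It was lower in pairs 1 and 2 and higher in pairs 3 and 4, with a blocked log2 fold change of 0.07 (-0.20 to 0.34). Whether the 3 subunits differ from each other in response was not tested.

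Among the genes of eIF2B, the member with the lowest fold change was eif-2Bgamma, a subunit of the catalytic part, with 57.4, 62.3, 53.8 and 43.1 CPM in control worms and 58.5, 47.3, 43.5 and 45.5 CPM in spk-1(RNAi) worms. Its blocked log2 fold change was -0.14 (-0.45 to 0.17), with 2 pairs higher and 2 lower. The regulatory subunit gene eif-2Bdelta stood at 116, 127, 150.3 and 151 CPM in control worms and at 130.01, 109, 188 and 153 CPM in spk-1(RNAi) worms, at a blocked value of 0.08 (-0.17 to 0.34). The highest blocked value was that of eif-2Balpha, another regulatory subunit, with 39.1, 58.7, 19.5 and 15.2 CPM in control worms and 34.1, 45.8, 27.7 and 22.3 CPM in spk-1(RNAi) worms. There the pairs disagreed, with log2 ratios of -0.20, -0.36, 0.51 and 0.55, and the blocked value was 0.15 (-0.29 to 0.59). The remaining subunit genes eif-2Bbeta and eif-2Bepsilon, the latter encoding the catalytic subunit, had blocked values of 0.07 and 0.01. Groups overlapped for all 5 genes. Their median log2 ratio was 0.16, -0.40, 0.32 and 0.08 in pairs 1 to 4. In pair 2 all were negative, at -0.36, -0.43, -0.21, -0.95 and -0.40 for the alpha, beta, delta, epsilon and gamma genes. Listed introns had at least 21 reads in each control library but not in each spk-1(RNAi) library. The part of this limit in the pair 2 ratios was not tested.

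The proteins eIF2A and eIF2D can bring initiator tRNA to the ribosome apart from eIF2, a role known mainly from mammals. The counts of eif-2A were 479, 389.9, 529.8 and 559 CPM in control worms and 468, 417, 580.1 and 455 CPM in spk-1(RNAi) worms. Those of eif-2D were 49.7, 49.2, 18.1 and 31.5 CPM and 60.9, 48.4, 19.2 and 36.1 CPM, with replicate 3 lowest in both groups. Their blocked log2 fold changes were -0.03 (-0.29 to 0.23) and 0.14 (-0.18 to 0.47), and the groups overlapped.

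For eIF3, the large scaffold that holds the initiation complex together, the fitted value was positive for 9 of 11 genes and negative for 2 both with and without the block, and 0 were called. The median was 0.09 with the block and 0.05 without it. This division changed with the libraries used: without spk-1(RNAi) replicate 1 it was 5 positive and 6 negative, and with the block and without pair 2 it was 6 and 5. The 3 eIF3 genes with symbols outside the rule, egl-45, cif-1 and clu-1, had blocked values of -0.02, 0.03 and 0.13.

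The highest value in the complex was that of eif-3.L (C17G10.9), a peripheral subunit. Controls had 271, 221, 128 and 123 CPM and spk-1(RNAi) libraries 285, 284, 182 and 142 CPM. Each pair was higher after spk-1(RNAi), while the drop from replicates 1 and 2 to replicates 3 and 4 was larger than the difference between groups, which overlapped. Means were 186 ± 72.5 and 223 ± 72.6 CPM (SD, n = 4), the blocked log2 fold change was 0.29 (SE 0.11, 0.05 to 0.53, unadjusted p = 0.0230, adjusted p = 0.462 in edgeR), and over the 25 settings it lay between 0.11 and 0.51. At the other end, eif-3.B, part of the core that binds RNA, had 189, 126, 212 and 209 CPM in control worms and 154, 101.3, 232 and 199 CPM in spk-1(RNAi) worms, lower in 3 of 4 pairs (blocked -0.13, -0.38 to 0.12). The other 9 genes had blocked values from -0.01 (eif-3.G) to 0.26 (eif-3.H, unadjusted p = 0.0594, adjusted p = 0.531).

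The exon junction complex helicase eIF4A3, which marks spliced messages, is encoded by eif-4A3. Its counts of 77.4, 44.7, 125 and 115 CPM in control worms and 67.3, 57.3, 147 and 116 CPM in spk-1(RNAi) worms overlapped, with a blocked log2 fold change of 0.09 (-0.19 to 0.36). The gene eif-6, whose product keeps the large ribosomal subunit from joining early, had 62.5, 45.6, 141 and 129 CPM in control worms and 47.6, 61.0, 119.5 and 118 CPM in spk-1(RNAi) worms (blocked -0.12, -0.42 to 0.19). In both genes replicates 3 and 4 of each group were above replicates 1 and 2.

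The hypusine-bearing factor eIF5A, which helps the ribosome join difficult peptide bonds, has 2 genes. In worms iff-1 is known for its need in germ cells and iff-2 for its role in the soma. Germline-associated iff-1 had 1556, 832, 4186 and 3387 CPM in control worms and 1338, 1061, 3044 and 2997 CPM in spk-1(RNAi) worms. Somatic iff-2 had 113, 59.2, 196 and 178 CPM in control worms and 132, 183, 174 and 189 CPM in spk-1(RNAi) worms. Their groups overlapped, and the lowest value of iff-2 was that of control replicate 2, while the 4 spk-1(RNAi) values lay between 132 and 189 CPM. Blocked log2 fold changes were -0.13 (-0.46 to 0.21) for iff-1 and 0.37 (SE 0.23, -0.13 to 0.87, unadjusted p = 0.130, adjusted p = 0.604 in edgeR) for iff-2.

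Pair 2 set most of the iff-2 value. The log2 ratio was 1.63 in pair 2 and 0.22, -0.17 and 0.09 in pairs 1, 3 and 4, in pairs 3 and 4 alone the fitted value was -0.05, and with the block and without pair 2 it was 0.04. In pairs 1 and 2 alone with the block, iff-2 was the single member called in any setting (a log2 difference of 0.87 with SE 0.21, and adjusted p = 0.00520 in edgeR), a fit of 4 libraries whose spread is borrowed from all genes. In the same pair the summed level of the 8 measured muscle markers was 2754 CPM in the control and 6152 CPM in spk-1(RNAi) worms, and that of the 5 hypodermal markers 675 and 1723 CPM, against 6460.2 and 6240.4 CPM for the 14 germline markers. Over all libraries, the muscle sum ran from 2754 to 10605 CPM in control worms and from 4045 to 11135 CPM in spk-1(RNAi) worms, and the hypodermal sum from 545 to 1042 CPM and from 858 to 1723 CPM. The 6 intestinal markers summed to 26958 CPM in the control and 34181 CPM after spk-1(RNAi) in pair 2, and the 2 neuronal markers to 52.4 and 67.6 CPM. Over all libraries, the intestinal sum ran from 26958 to 60575 CPM in control worms and from 33111 to 63789 CPM in spk-1(RNAi) worms, and the neuronal sum from 52.4 to 145 CPM and from 67.6 to 158 CPM. With the block, 8 of 8 muscle, 6 of 6 intestinal, 3 of 5 hypodermal, 1 of 2 neuronal and 6 of 14 germline genes had positive values, beside 2953 of all 5762 genes. In pairs 1 to 4 the median log2 ratio was 0.33, 1.25, -0.04 and 0.12 for muscle and 0.01, 0.48, 0.15 and 0.12 for intestinal genes. Genes of a list share these libraries and are not independent. The part of these markers in the iff-2 values was not tested.

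As a share of reads per intron of the 2 genes, iff-2 took 12.7%, 12.5%, 8.55% and 9.50% in controls and 16.4%, 25.6%, 10.3% and 11.2% after spk-1(RNAi). It was higher in 4 of 4 pairs with overlapping groups, at 10.8% ± 2.09 against 15.9% ± 7.04 (SD, n = 4; exact 2-sided permutation p = 0.229, 0.514 adjusted over 3 paralogue pairs). The sign-flip test over pairs gave p = 0.125, the smallest that 4 pairs allow in an exact test. Read at the deepest intron of each gene, the share was 6.81%, 6.17%, 6.39% and 7.52% in controls and 8.84%, 12.03%, 8.64% and 8.83% after spk-1(RNAi). There the groups did not overlap, and the exact permutation p was 0.0286, the smallest 4 against 4 allows, and 0.0857 adjusted over the 3 paralogue pairs. This reading was an addition to the planned share per intron. For eef-1A.2 and eef-1B.2 it gave overlapping groups and exact permutation p of 0.543 and 0.886. Leaving out spk-1(RNAi) replicate 2 lowered the difference per intron from 5.09 to 1.84 percentage points.

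In the elongation complex eEF1, which loads aminoacyl-tRNA and renews its own GTP, the major gene eef-1A.1 (F31E3.5) had 5953, 2532, 11091 and 9860.1 CPM in control worms and 5275, 3718, 9098 and 9123 CPM in spk-1(RNAi) worms. Its second copy eef-1A.2 (R03G5.1) had 83.8, 54.7, 170.4 and 162 CPM in control worms and 76.4, 111, 174 and 187 CPM in spk-1(RNAi) worms. The groups overlapped for both, and eef-1A.1 was lower in 3 of 4 pairs whereas eef-1A.2 was higher in 3 of 4. Blocked log2 fold changes were -0.01 (-0.37 to 0.36) and 0.24 (-0.12 to 0.60). The copies are close in sequence and the rule for reads that match both is not given in the sources used here, so the split between them is uncertain. The eef-1A.2 share per intron was 2.07%, 3.14%, 2.25% and 2.41% in controls and 2.13%, 4.30%, 2.79% and 2.98% after spk-1(RNAi), higher in 4 of 4 pairs (2.47% ± 0.468 against 3.05% ± 0.909, SD, n = 4; exact permutation p = 0.343, adjusted 0.514; sign flips p = 0.125).

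The exchange factor genes varied more between replicates of a group than between libraries of the same number. For eef-1B.1 the counts were 575, 1396, 3382 and 2818 CPM in control worms and 521, 1434, 2568 and 2675 CPM in spk-1(RNAi) worms, so replicate 1 was lowest and replicate 3 or 4 highest in both groups. For eef-1B.2 they were 484, 483, 949.8 and 999 CPM and 424, 494, 823 and 905 CPM. The share of eef-1B.2 was 36.0%, 18.7%, 15.8% and 19.1% in controls and 35.2%, 18.7%, 17.6% and 18.4% after spk-1(RNAi), with replicate 1 far above the rest in both groups (22.4% ± 9.17 against 22.5% ± 8.48, SD, n = 4; exact permutation p = 1.0). Blocked log2 fold changes were -0.14 for eef-1B.1, -0.13 for eef-1B.2 and -0.11 for eef-1G, which anchors the complex, and all 3 genes were lower in 3 of 4 pairs. The direction within eEF1 was not stable: 4 of its 5 genes had negative values with and without the block, and 0 of 5 without control replicate 3.

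The translocase gene eef-2 (F25H5.4), whose product moves the ribosome by a codon, was lower in each pair. It had 2551, 1947, 2406 and 2209 CPM in control worms and 2231, 1594, 2275 and 1971 CPM in spk-1(RNAi) worms, so the lowest 2 libraries were the replicates numbered 2 and, with the rest interleaved, the groups overlapped. Means were 2278 ± 262 and 2018 ± 313 CPM (SD, n = 4), with a blocked log2 fold change of -0.18 (SE 0.12, -0.45 to 0.09, unadjusted p = 0.168, adjusted p = 0.656 in edgeR). Together with eif-2alpha and eif-2gamma, eef-2 made 3 members lower in all 4 pairs, and eif-3.L was the only member higher in all 4, in all 12.1% of members beside 19.2% of all genes.

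**Figure D3:**
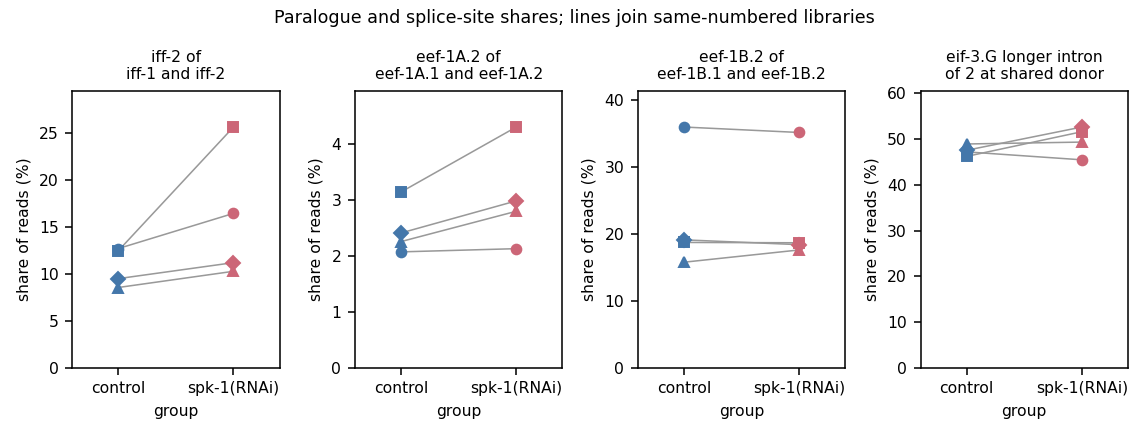
Share of reads per intron taken by the second copy of 3 paralogue pairs, and share of the longer intron at the shared donor of eif-3.G, in percent. Each line joins the control (left) and spk-1(RNAi) library (right) of the same number (circle 1, square 2, triangle 3, diamond 4); the iff-2 and eef-1A.2 lines all rise, and the eef-1B.2 share stands near 36% in replicate 1 and under 20% in the others.

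Library sets separated many of these genes, where the groups separated 0. All 4 libraries of replicates 3 and 4 lay above all 4 of replicates 1 and 2 for 14 of 33 members (42.4%), and below them for 8 (24.2%), where the shares over all genes were 25.1% and 21.9%. Of 80 ribosomal protein genes, 48 (60%) lay above and 3 (3.75%) below, so a raised share above was not particular to the factors. The highest gains of members in log2 CPM were those of eif-3.J (2.05), eif-1.A (1.77), eef-1B.1 (1.69) and iff-1 (1.53). All 5 eEF1 genes were among the 14 members. Those that stood lower in replicates 3 and 4 included eif-2Balpha (-1.07), eif-2D (-1.05), eif-3.H (-0.91), eif-3.L (-0.89) and eif-3.E (-0.89). The eIF3 genes therefore split, with 3 of 11 above and 5 below. Across the 33 genes, which are not independent replicates and share these libraries, the Spearman correlation of this difference with annotated transcript length was -0.23, beside -0.13 over 5709 genes. The labels do not say how replicates 3 and 4 differed in handling, so the sets are named here by number alone.

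**Figure D4:**
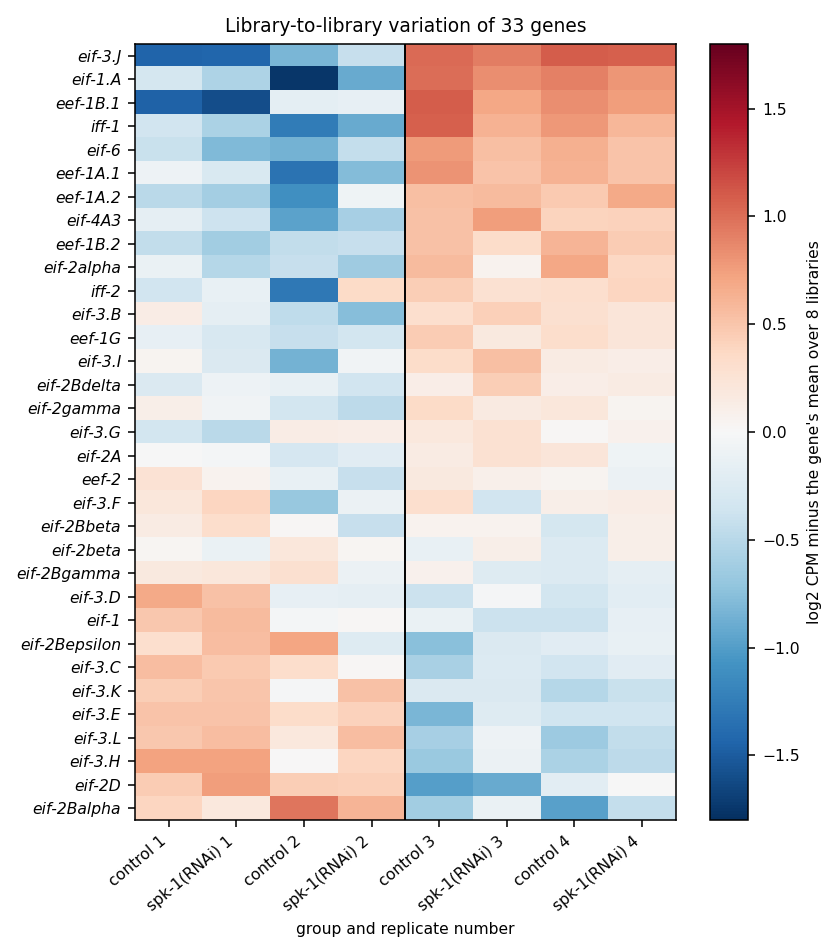
Log2 CPM of each of the 33 genes in each library, minus the gene's mean over 8 libraries (colour), with genes ordered by the difference between replicates 3 and 4 and replicates 1 and 2. The vertical line divides these sets; the colours change across it from eif-3.J at the top (a difference of 2.05) to eif-2Balpha at the bottom (-1.07), while most neighbouring columns of the same number look alike.

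Within genes, reads were also unevenly spread over introns, and in some members this spread differed between the library sets. In 32 members with 2 or more introns, the intron with the highest mean CPM over the 8 libraries had a median of 1.83 times that of the lowest. The ratio was 6.82 in iff-1 and 5.73 in eef-1B.1, and it varied by library: the eef-1B.1 introns had 270 and 264 CPM in control replicate 1 and 3118 and 392 CPM in control replicate 3. The lowest intron of iff-1 was the 168 nt intron that has the length of no annotated intron of the gene. The intron nearest the 3′ end took a larger share in all libraries of replicates 3 and 4 than in any of replicates 1 and 2 in 8 members (25%), beside 18.1% of 4370 genes, and a smaller share in 2 (6.25%), beside 19.1%. In eif-2alpha that share was 38.4%, 35.4%, 69.8% and 69.5% in control replicates 1 to 4 and 32.8%, 32.6%, 65.2% and 69.1% after spk-1(RNAi). In iff-1 it was 16.1%, 13.3%, 33.7% and 35.8%, and 14.9%, 11.6%, 34.3% and 36.1%. Both genes are among the 8 with a larger share in replicates 3 and 4, and their groups overlapped. By this share the groups overlapped in all 32 members, beside 28 of all genes (0.641%) whose groups did not overlap.

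**Figure D5:**
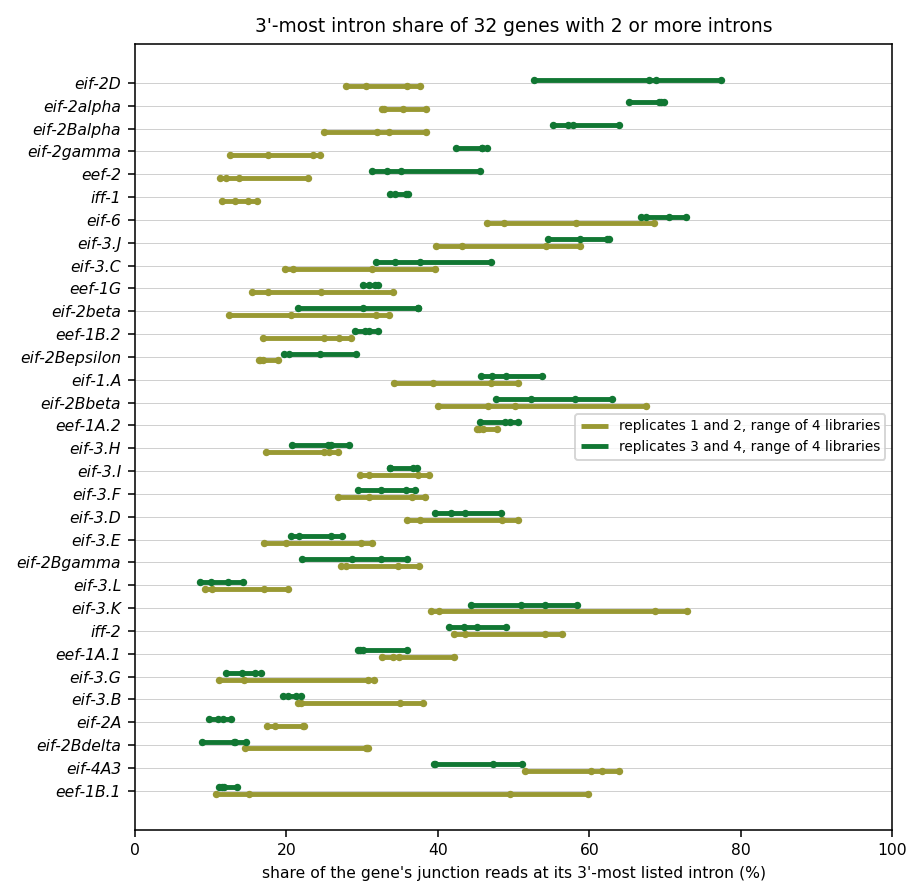
Share of a gene's junction reads at its listed intron nearest the 3′ end (percent) in 32 members, as points for each library and bars for the range over 4 libraries, in replicates 1 and 2 (light) and replicates 3 and 4 (dark) of both groups together. In 8 genes, among them eif-2D, eif-2alpha and iff-1, the dark bar lies wholly to the right of the light bar, and in eif-2A and eif-4A3 wholly to the left.

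Reads at single introns were tested over all 20324 introns. In edgeR's quasi-likelihood test, calls numbered 0 of 118 member introns, and 1 had an unadjusted p under 0.05, beside 0 of all introns called (0%) and 173 (0.851%) at an unadjusted p under 0.05. With the block 0 member introns were called and 6 had an unadjusted p under 0.05, beside 14 introns called (0.0689%) and 1708 (8.4%). These 6 were intron 3 of 3 in eif-2alpha, intron 2 of 5 in eif-2gamma, intron 2 of 3 in eif-3.D, introns 3 and 6 of 7 in eif-3.L and intron 6 of 7 in eif-2Bdelta. The first 2 were lower in all 4 pairs, and those of eif-3.L and eif-2Bdelta higher in all 4.

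Intron 6 of eif-2Bdelta (F11A3.2; ce10, chromosome V, 9515570 to 9516162, 593 nt) was the member intron with the lowest p. It had 20.9, 10.3, 16.5 and 12.9 CPM in control worms and 25.8, 13.4, 43.4 and 29.1 CPM in spk-1(RNAi) worms, with the 2 highest values in spk-1(RNAi) replicates 3 and 4 and overlap elsewhere. Its log2 fold change was 0.88 with the block (SE 0.23, unadjusted p = 0.00109, adjusted p = 0.273 in edgeR) and 0.88 without it (unadjusted p = 0.0375, adjusted p = 1.0). It held 11.6% ± 5.30 of the gene's junction reads in controls and 18.7% ± 4.97 after spk-1(RNAi) (SD, n = 4). In pairs 3 and 4 alone with the block it was called (log2 fold change 1.28, adjusted p = 0.0103), as was intron 1 of 4 in eif-2beta (1.18, adjusted p = 0.0138). That eif-2beta intron had 59.8, 136, 20.6 and 15.3 CPM in control worms and 48.1, 93.4, 51.5 and 31.5 CPM in spk-1(RNAi) worms, higher in pairs 3 and 4 and lower in pairs 1 and 2.

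Use of introns relative to the rest of their gene was called in 0 of 32 members, with 0 at an unadjusted p under 0.05, beside 1 of 4370 genes called (0.0229%) and 3 (0.0686%) at an unadjusted p under 0.05 in edgeR. With the block, 0 members were called and 1 came under 0.05 before adjustment, beside 3 genes called (0.0686%) and 115 (2.63%) under 0.05 unadjusted. It was eif-2Bdelta, with a Simes p of 0.0243 and an adjusted p of 1.0 in edgeR. The lone intron behind it was intron 6.

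A choice between splice sites could be read in 1 member, eif-3.G (F22B5.2), whose protein is an RNA-binding subunit of eIF3. On chromosome II (ce10), introns of 40 nt (8442750 to 8442789) and 46 nt (8442750 to 8442795) share a donor and end at acceptors 6 nt apart. The longer intron took 47.2%, 46.2%, 48.9% and 47.5% of reads at this donor in controls and 45.5%, 51.6%, 49.3% and 52.6% after spk-1(RNAi). The exact 95% binomial intervals, which cover counting error only, ran from 38.7% to 52.3% in the shallowest library (220 reads) and from 47.3% to 50.5% in the deepest (3919 reads). In replicate 4 they ran from 45.5% to 49.6% in the control and from 50.5% to 54.8% after spk-1(RNAi), on opposite sides of an even split. Means were 47.5% ± 1.12 in controls and 49.8% ± 3.18 after spk-1(RNAi) (SD, n = 4). Replicates 2, 3 and 4 after spk-1(RNAi) lay above every control and replicate 1 below every control, so the groups overlapped. This site was not called (adjusted p = 0.969 in edgeR, and 0.917 with the block), beside 2 of 150 shared sites called (1.33%), with 8 (5.33%) at an unadjusted p under 0.05, and 8 called (5.33%) with the block, with 20 (13.3%). Over all sites, the unblocked count of 2 became 0 without control replicate 2 or 3 or spk-1(RNAi) replicate 2 or 3, 1 without spk-1(RNAi) replicate 4 and 3 without spk-1(RNAi) replicate 1, while eif-3.G was called in 0 of these fits.

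Exon bins of the same series gave another readout, which concerns use of bins within a gene and not the level of the gene. The authors' deposited table of DEXSeq results held 254 bins for the 33 genes, of which the 9 of eif-1 belong to a unit joined with another gene, and 252 bins had a p-value. Of these 1 was under 0.05 in the authors' deposited table, or 0.397% beside 1112 of 112784 bins (0.986%) in all genes. That bin, the sixth of eef-1B.2, had p = 0.0118 and an adjusted p of 1 in the authors' deposited table. The same table has 4 bins with an adjusted p under 0.05, and 0 of them lie in these genes. It gives no direction of change.

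Other genes of translation were called in 0 cases by edgeR with or without the block. Of the cap-binding eIF4F genes 9 of 11 were measured, with blocked values from -0.18 (drr-2) to 0.11 (inf-1) and -0.13 for the scaffold gene ifg-1. Of the kinases and regulators of eIF2, 7 of 9 were measured. Among them gcn-1, which in yeast and mammals activates the eIF2 kinase GCN2, had 149 ± 18.6 CPM in control worms and 114 ± 19.3 CPM in spk-1(RNAi) worms (SD, n = 4), below the control in 4 of 4 pairs, with a blocked value of -0.37 (SE 0.12, unadjusted p = 0.0130, adjusted p = 0.402 in edgeR), and abcf-3 was also lower in 4 of 4 (-0.19). The eEF2 kinase gene efk-1 had the highest value of this list (0.45, SE 0.33). Of the 8 TOR pathway genes, all measured, raga-1, a Rag GTPase that signals amino acid supply, was higher in 4 of 4 pairs (72.7 ± 12.02 and 88.0 ± 16.3 CPM, blocked 0.27, unadjusted p = 0.0437, adjusted p = 0.504).

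Termination and recycling genes (3 of 4 measured) had blocked values from -0.09 (abce-1) to 0.05 (erfa-3), and the mitochondrial elongation genes (4 of 6) from -0.03 (tufm-1) to 0.12 (tsfm-1). Enzymes that modify eIF5A with hypusine and eEF2 with diphthamide (4 of 4 measured) ranged from -0.21 (dhps-1) to 0.37 (dph-2). Ribosomal protein genes (80 of 83 measured), the other large group of the translation machinery, had a median of -0.04 with the block, 25 positive and 55 negative, and -0.09 without it, 14 positive and 66 negative. In single pairs that median was -0.24, 0.37, -0.29 and -0.04. The largest blocked values were 0.31 for rpl-25.1 and -0.25 for rpl-1, which was lower in 4 of 4 pairs (unadjusted p = 0.0791, adjusted p = 0.559).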

How the data were processed

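The members and the gene lists were chosen with earlier results of these data known. Per the file headers, the authors deposited read counts per intron for each library, not normalized, with ratios of same-numbered libraries beside them, and a DEXSeq table of exon bins with p-values and a mean normalized signal. Per the submitters' processing notes, TopHat 1.4.1, Bowtie2 2.0.0 and build ce10 were used; the sources used here do not give their roles, the read counter or the annotation. A heading stood over 2 columns of the count table. They were told apart as spk-1(RNAi) replicates 1 and 4 because the authors' deposited ratios of those numbers equalled the column's reads over the same-numbered control, within 0.0001, in 99.99% and 99.36% of introns, and for other columns in at most 0.32%. Of 20349 listed introns, 25 stood on both strands and were kept once, and 160 had no gene. No per-sample column was unused (0 columns).

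Counts were summed per gene and tested with edgeR 4.0.16 in R 4.3.3 (TMM scaling, filterByExpr, quasi-likelihood test, Benjamini-Hochberg adjustment over all genes or introns), with diffSpliceDGE for intron use, and DESeq2 1.42.0 as an alternative. CPM are scaled by TMM, and intervals come from the fitted SE. Pairing was checked: deviations from group means correlated at 0.88, 0.68, 0.71 and 0.75 for same-numbered libraries, which meets the limit of 0.1 set for pairing, although replicates 3 and 4 correlated almost as well across numbers (0.695 and 0.683) and replicates 1 and 2 less (0.243 and 0.350), so the report gives fits blocked on replicate number. Paralogue shares used exact permutation tests. The edgeR fit per gene, with and without the block, was tested on simulated counts. So were DESeq2 and the intron use test without the block. The simulated counts held no difference between replicate sets, and the other steps were not tested in this way. Of 5762 gene names, 5709 were found in the reference annotation, which is of another build (WBcel235) and served for names, strand and lengths only; 116 of 118 member intron lengths matched it. Coordinates are ce10, counted from 1. Values of all 8 libraries are given for paralogues, for the highest and lowest member of each complex and for members lower or higher in 4 of 4 pairs, and for list genes the largest blocked values are named. Alternatives were other scaling, filters, tools and subsets of libraries. The fewest reads at a member intron in any library were 8.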

Additional observations from a re-analysis of the deposited data

Results flagged for a closer look

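In 4 of 74 groups of 4 libraries tested (5.41%, where chance gives about 1 in 20), a library stood apart from the other 3 by Dixon's ratio. The eif-2Bepsilon level in spk-1(RNAi) replicate 1 was 90.7 CPM, against 51.2 to 56.2 CPM in the others. The eif-3.D level in control replicate 1 was 199.97 CPM, against 95.1 to 112 CPM. The share of eef-1B.2 within its pair of genes was 36.0% in control replicate 1 and 35.2% in spk-1(RNAi) replicate 1, against 15.8% to 19.1% in the other 6 libraries. All 4 flags fell on replicate 1 libraries.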

How the results depend on the processing

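Leaving out any single library called 0 members, 0 member introns, 0 member genes for intron use and 0 member sites, with 0 genes, 0 introns and 1 gene for intron use called over the whole tables, and the members' median log2 fold change ran from -0.06 to 0.05. Other scaling and filters changed none of these counts. Calls over all genes numbered 7 in pairs 3 and 4 alone, 213 there with the replicate block, 56 in pairs 1 and 2 alone with the block (where 1 member, iff-2, was called), 56 in DESeq2 with the block, 5 and 7 with the block without pair 1 or pair 2, and 17 with the block in pairs 2 and 3, whose headings are unambiguous. The alternatives that leave out a pair and the fit of pairs 2 and 3 were chosen after seeing the data. Calls over all introns numbered 14 with the replicate block, 55 in pairs 3 and 4 alone and 286 there with the block (where 2 member introns were called), 19 in pairs 1 and 2 with the block, 29, 14, 12 and 11 with the block without pair 1, 2, 3 or 4, and 14 in pairs 2 and 3. Genes called for intron use numbered 3 with the replicate block and also with any pair left out, 2 (unblocked) and 5 (blocked) in pairs 3 and 4, and 0 in blocked pairs 1 and 2 or with spk-1 introns left out. Fits of 2 pairs leave few residual degrees of freedom. The iff-2 fold change was -0.0481 (unblocked) and -0.0484 (blocked) in pairs 3 and 4 and 0.87 in pairs 1 and 2 with it, that of eif-3.H ran from -0.00871 to 0.586 and that of eef-1A.2 from -0.0141 to 0.448 without single libraries, with the low ends without spk-1(RNAi) replicate 1 and control replicate 2. Without single libraries, the difference in paralogue share (spk-1(RNAi) minus control) ran from 1.84 to 6.96 percentage points for iff-2, from 0.167 to 0.890 for eef-1A.2 and from -4.17 to 4.59 for eef-1B.2, reversed without control replicates 2 (-1.16), 3 (-2.15) and 4 (-1.03) and spk-1(RNAi) replicate 1 (-4.17). At the deepest introns the iff-2 difference was 2.87. The cause was not tested. Apart from iff-2 in pairs 1 and 2 and the 2 member introns in pairs 3 and 4, the block changed no member call.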
